A study of Mus musculus with 8 samples.

Results

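The corticosteroid receptors and their target genes were followed in the left ventricle of the mouse heart. The set comprised both receptors (Nr3c2 and Nr3c1), the enzymes that set the local level of active glucocorticoid (Hsd11b1 and Hsd11b2), and 6 genes known to respond to these hormones (Sgk1, Tsc22d3, Ddit4, Zbtb16, Fkbp5 and Klf15). All non-control probes whose gene name in the array design equals one of these 10 symbols were taken, which gave 10 of 30199 gene names and 11 of 39429 probes on the array. Nr3c1 had 2 probes and each other gene had 1. Of the 11 probes, 10 were well above background in at least 4 samples and were tested among 23244 probes.

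The series asks how dietary salt alters gene expression in the heart. Male C57Bl/6j mice, an inbred strain, received a low salt diet (0.05% Na) or a normal salt diet (0.4% Na) from 8 weeks of age, with 4 mice in each group. The diets lasted 8 weeks, and septum, free wall and apex were homogenised together at 16 weeks of age. The labels name no transgene and no hormone treatment in either group, and hormone levels and the time of day of killing were not analysed here. Each of the 4 arrays held 2 mice of 1 diet, mice 1 and 2 or mice 3 and 4, the odd numbers in the green dye Cy3 and the even numbers in the red dye Cy5. All arrays lay on 1 slide, with the arrays of a diet side by side, so position on the slide and diet cannot be told apart. Values are normalised log2 intensities, on which a difference of 1 is a doubling, and differences are low salt minus normal salt with their standard error from limma.

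Aldosterone and corticosterone, the main mineralocorticoid and glucocorticoid of the mouse, are released by the adrenal cortex and bind intracellular receptors that act as transcription factors. Dietary sodium restriction is known to raise aldosterone through the renin-angiotensin system. The mineralocorticoid receptor binds both hormones, and the heart muscle cell has little of the enzyme that inactivates corticosterone in the kidney, so that most of its receptors are thought to hold glucocorticoid. Many target genes carry glucocorticoid response elements, pairs of inverted hexamers to which both receptors can bind.

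The promoter letters of 2 targets are shown because they differ in this element. RefSeq windows from 250 bases before to 50 bases after a gene's start (GRCm38.p6) were searched on both strands for the full element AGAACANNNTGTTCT and for the single hexamer AGAACA, and a full element holds 2 hexamers. The table matched 7 of the 10 genes with 14 windows. The full element stood in 3 of 32851 windows of all genes (0.00913%). One of these belonged to Sgk1, where the element began 189 bases before the start. The hexamer stood in 19.0% of all windows and in 4 of the 14 windows of the set. These 4 belonged to Sgk1 or Tsc22d3, and both genes also had windows without the hexamer. The stretches below are the 250 bases before one start of each gene, 5′ to 3′ on the gene's strand, with hexamers in capitals. The first is chr10:21993640-21993889 (plus strand) and the second is chrX:140600523-140600772 (minus strand).
Sgk1: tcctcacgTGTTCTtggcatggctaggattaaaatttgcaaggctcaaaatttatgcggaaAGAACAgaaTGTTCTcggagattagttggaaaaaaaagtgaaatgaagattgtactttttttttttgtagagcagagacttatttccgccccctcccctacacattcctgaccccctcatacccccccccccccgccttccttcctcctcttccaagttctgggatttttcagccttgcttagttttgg
Tsc22d3: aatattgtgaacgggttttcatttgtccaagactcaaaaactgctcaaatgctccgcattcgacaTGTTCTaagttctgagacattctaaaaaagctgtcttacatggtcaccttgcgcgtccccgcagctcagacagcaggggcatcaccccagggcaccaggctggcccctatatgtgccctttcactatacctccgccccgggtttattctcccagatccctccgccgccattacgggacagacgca

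A match in these windows is a description of the letters and was not tested as a binding site. The Sgk1 probe matches 4 RefSeq transcripts in the design, so the array cannot tell which start was used. The first 30 of the 60 bases of the probes on which most of the results rest are given next, in the direction of the RNA, to show what was hybridised. In the array design (mm9) the Sgk1 probe lies at chr10:21719507-21719566 (plus strand), the Tsc22d3 probe at chrX:137074094-137074153, the Ddit4 probe at chr10:59412486-59412545 and the Hsd11b1 probe at chr1:195048169-195048228 (all minus strand). The exon or untranslated region was not given in the sources used here.
Sgk1 probe: gtatcgtgtaaaggaagtctgtacattggg
Tsc22d3 probe: ctgctgtacgactccaggatttggatttgg
Ddit4 probe: tgccacctgggtcttccatctagaacctgt
Hsd11b1 probe: aaggacatgtttgtaagtaactaggaactc

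Over the set, no probe passed the threshold of an adjusted p of 0.05 in limma, where 0.813% of all tested probes did (0.779% higher and 0.0344% lower on low salt). The unadjusted p was under 0.05 for 3 of the 10 probes (Sgk1, Tsc22d3 and Ddit4), all lower on low salt, against 11.1% of all probes in either direction and 4.33% in the lower direction. The median difference of the 10 probes was -0.31, with 6 below 0 and 4 above, and that of all tested probes was 0.01. In 3 of the 10 probes (Hsd11b1, Tsc22d3 and Ddit4) every low salt mouse lay below every normal salt mouse, which 4.85% of all probes with 8 values did. None lay wholly above, which 7.76% did, so that the groups were apart in 3 of the 10 probes and in 12.6% of all. The genes of the set with an unadjusted p under 0.05 are all hormone-induced targets, as are 6 of its 10 genes by the choice of the set. The targets Zbtb16, Fkbp5 and Klf15 were not among them, and neither was either receptor.

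**Figure D1:**
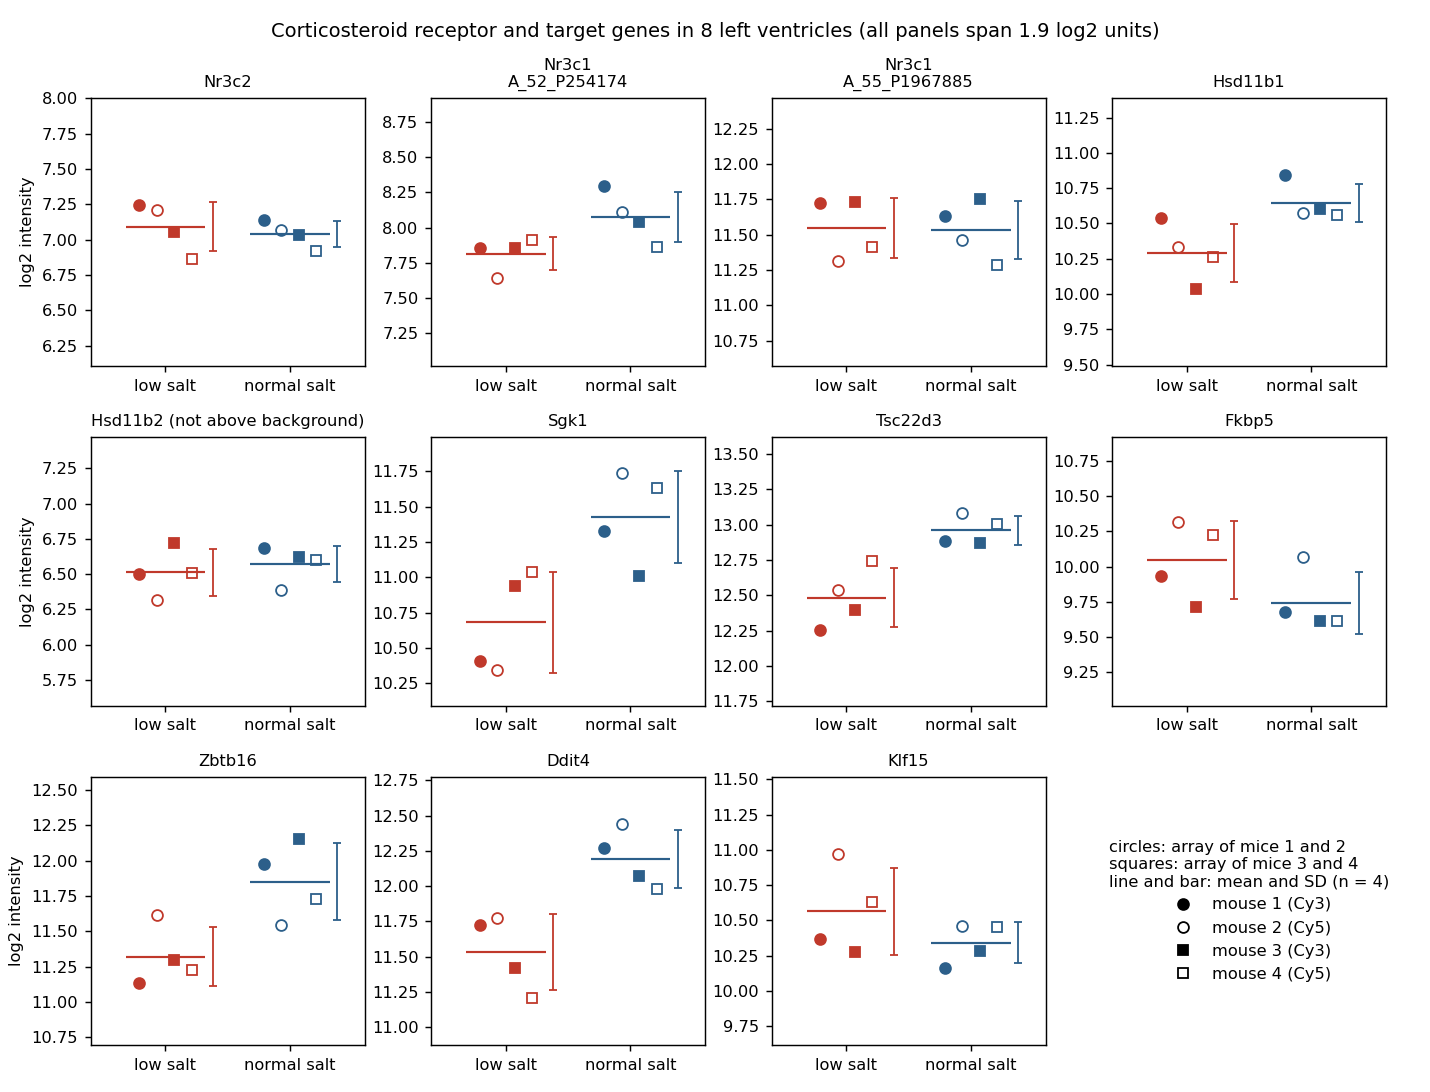
Normalised log2 intensity (vertical axis) of the 11 probes in each mouse, with low salt left of normal salt in every panel. Filled symbols are Cy3 and open symbols Cy5, circles mark the array of mice 1 and 2 and squares that of mice 3 and 4, lines are group means and bars are SD (n = 4). Each panel spans the same range in log2 units. Low salt mice lie below all normal salt mice for Hsd11b1, Tsc22d3 and Ddit4, while both receptors overlap between the diets.

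Nr3c2 encodes the mineralocorticoid receptor. Its probe was dim, with 7.24, 7.21, 7.05 and 6.86 in low salt mice 1 to 4, against 7.14, 7.07, 7.03 and 6.92 in normal salt mice 1 to 4. The groups overlapped over most of their range. The difference was 0.05 ± 0.12 (SE, n = 4 mice each, adjusted p = 0.884), with a 95% confidence interval from -0.21 to 0.32. The interval holds levels on low salt between 86.3% and 124.9% of those on normal salt. In whole ventricle, fewer cells of a type and less RNA per cell cannot be told apart, which holds for every gene here.

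Nr3c1 encodes the glucocorticoid receptor, and its probes differed in what they showed. Probe A_55_P1967885, the brighter one, read 11.72, 11.32, 11.73 and 11.41 in low salt mice, against 11.63, 11.46, 11.75 and 11.28 in normal salt mice. Its values split by dye within each diet, and the diets lay on top of each other, with a difference of 0.01 ± 0.11 (adjusted p = 0.971, interval -0.24 to 0.27). Probe A_52_P254174 read 7.85, 7.64, 7.86 and 7.91 in low salt mice, against 8.29, 8.11, 8.04 and 7.86 in normal salt mice. Here 3 normal salt mice stood above all low salt mice and normal salt mouse 4 did not. The difference was -0.26 ± 0.13 (adjusted p = 0.495, interval -0.55 to 0.03), and -0.13 with the normal salt array of mice 1 and 2 left out. From the processed signal of the scanner software it was -0.50. Both probes match 1 RefSeq transcript of the gene in the design.

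Hsd11b1 encodes 11β-hydroxysteroid dehydrogenase type 1, which regenerates active glucocorticoid from its inert form inside cells. Its probe was printed in 10 spots and read 10.54, 10.33, 10.04 and 10.27 in low salt mice, against 10.84, 10.58, 10.60 and 10.56 in normal salt mice. All low salt mice were lower, by a gap of 0.02 between the nearest mice of the groups. The difference was -0.35 ± 0.17 (adjusted p = 0.479, interval -0.73 to 0.03), and -0.21 with the low salt array of mice 3 and 4 left out. From the processed signal of the scanner software it was -0.55.

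The Hsd11b1 value depended on which spots were read. In all 4 low salt mice 2 of the 10 spots carried an outlier flag of the scanner software and were left out, and in normal salt mice none did. Over the 8 spots flagged in no sample, low salt mice had the values above, and normal salt mice had 10.91, 10.64, 10.66 and 10.64. The gap between the groups was wider there, and the difference was -0.42 ± 0.17 (adjusted p = 0.406). One of these 8 spots lay in a part of the arrays where the neighbouring spots read higher on low salt (by a median of 0.31) and gave -0.04. The other 7 spots ranged from -0.56 to -0.37 with a mean of -0.48, so that the spots of the probe outside that part all read lower on low salt. The choice to keep to the same spots was made after the data were seen.

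**Figure D2:**
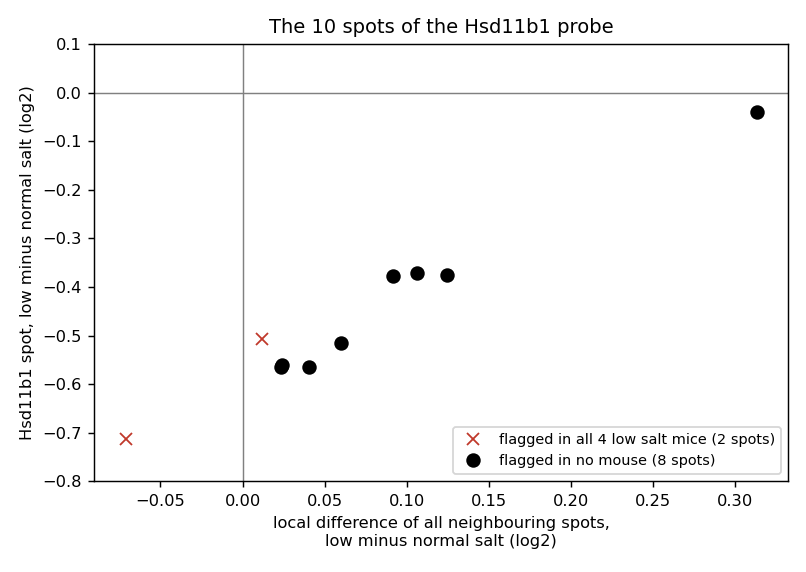
Low salt minus normal salt log2 difference of each of the 10 spots of the Hsd11b1 probe (vertical axis) against the difference of the neighbouring spots on the arrays (horizontal axis). Crosses mark the 2 spots flagged in every low salt mouse, shown with their flagged values left in; the spot in the uneven part, at 0.31 on the horizontal axis, is the one closest to 0.

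Hsd11b2 encodes the type 2 enzyme, which inactivates glucocorticoid and guards the mineralocorticoid receptor in kidney and colon. Its probe was not well above background in any of the 8 mice and was not tested. The measured values were 6.50, 6.31, 6.72 and 6.51 in low salt mice, against 6.69, 6.39, 6.62 and 6.60 in normal salt mice. No fold is given, since both groups were below the limit of measurement.

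Sgk1 encodes serum- and glucocorticoid-regulated kinase 1, which carries the aldosterone signal to the epithelial sodium channel in the kidney. It had the largest difference of the set. The probe read 10.41, 10.34, 10.94 and 11.04 in low salt mice, against 11.33, 11.74, 11.01 and 11.63 in normal salt mice. Low salt mouse 4 stood above normal salt mouse 3, so the groups overlapped by 0.03. The level on low salt was 59.6% of that on normal salt, or 1.68-fold lower. The difference was -0.75 ± 0.25 (interval -1.31 to -0.18, adjusted p = 0.317).

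The low salt values of Sgk1 lay close together within each array. Low salt mice 1 and 2 averaged 10.38 and low salt mice 3 and 4 averaged 10.99, against 11.54 for normal salt mice 1 and 2 and 11.32 for normal salt mice 3 and 4. With the low salt array of mice 3 and 4 left out the difference was -1.05 with an adjusted p of 0.046, and 6.02% of all probes passed in that fit. With the low salt array of mice 1 and 2 left out it was -0.44. In either fit 1 array stands for the low salt diet, and array and diet cannot be told apart.

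Tsc22d3 encodes GILZ, the glucocorticoid-induced leucine zipper, which restrains inflammatory transcription factors. Its probe read 12.25, 12.54, 12.40 and 12.74 in low salt mice, against 12.89, 13.08, 12.87 and 13.00 in normal salt mice. Every low salt mouse lay below every normal salt mouse, with a gap of 0.12. The difference was -0.48 ± 0.11 (interval -0.72 to -0.23), which is 1.39-fold lower on low salt, and was the most precise of the set relative to its size. Its adjusted p was 0.114. Tsc22d3 passed the threshold without the array block (adjusted p = 0.020), where 3.47% of all probes passed. That fit treats the 2 mice of an array as independent, although diet differs only between arrays. With each array averaged to 1 value the adjusted p in limma was 0.388. Tsc22d3 also passed with the low salt array of mice 3 and 4 left out (-0.57, adjusted p = 0.030), as did 6.02% of all probes. In that fit 1 array stands for the low salt diet.

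Ddit4 encodes REDD1, an inhibitor of the growth kinase mTORC1 that glucocorticoids and low oxygen induce. Its probe read 11.73, 11.78, 11.42 and 11.21 in low salt mice, against 12.27, 12.44, 12.07 and 11.98 in normal salt mice. The groups were further apart than for any other probe of the set, with a gap of 0.21. The difference was -0.66 ± 0.18 (interval -1.07 to -0.24), or 1.58-fold lower on low salt, with an adjusted p of 0.210. It was -0.44 without the low salt array of mice 3 and 4 and -0.87 without that of mice 1 and 2. From the processed signal of the scanner software it was -0.50. With the mouse number as a replicate block Ddit4 passed the threshold (adjusted p = 0.030), as did 1.34% of all probes. The labels name no pairs of mice, and this block was fitted because same-numbered mice deviated together in these data. Spots around the Ddit4 probe also read lower on low salt, by 0.11, and the difference was -0.55 (adjusted p = 0.281) with that local trend taken off, a fit in which 0.357% of all probes passed.

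Zbtb16 encodes PLZF, a zinc finger repressor strongly induced by glucocorticoids in many cells. It read 11.14, 11.62, 11.30 and 11.23 in low salt mice, against 11.98, 11.54, 12.16 and 11.73 in normal salt mice. Low salt mouse 2 stood above normal salt mouse 2, and the other mice were ordered by diet. The difference was -0.53 ± 0.26 (adjusted p = 0.492, interval -1.13 to 0.06). The Cy3 mice differed by -0.85 and the Cy5 mice by -0.21.

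Fkbp5 and Klf15 are glucocorticoid targets whose differences were above 0. Fkbp5 encodes a co-chaperone that lowers the hormone affinity of the glucocorticoid receptor in a feedback loop. It read 9.93, 10.32, 9.72 and 10.23 in low salt mice, against 9.68, 10.07, 9.61 and 9.62 in normal salt mice. Normal salt mouse 2 stood above low salt mice 1 and 3, and the other normal salt mice lay below all low salt mice. The difference was 0.30 ± 0.17 (adjusted p = 0.530, interval -0.08 to 0.68). It was 0.19 without normal salt mouse 4 and 0.17 without the array that mouse shared with normal salt mouse 3. Without the normal salt array of mice 1 and 2 it was 0.43. Klf15 encodes a transcription factor of cardiac lipid and amino acid use. It read 10.37, 10.97, 10.28 and 10.63 in low salt mice, against 10.17, 10.46, 10.28 and 10.46 in normal salt mice. Its groups overlapped, and the difference was 0.22 ± 0.14 (adjusted p = 0.578, interval -0.10 to 0.54). It was 0.14 without low salt mouse 2 and 0.11 without the low salt array of mice 1 and 2. Without the low salt array of mice 3 and 4 it was 0.33.

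**Figure D3:**
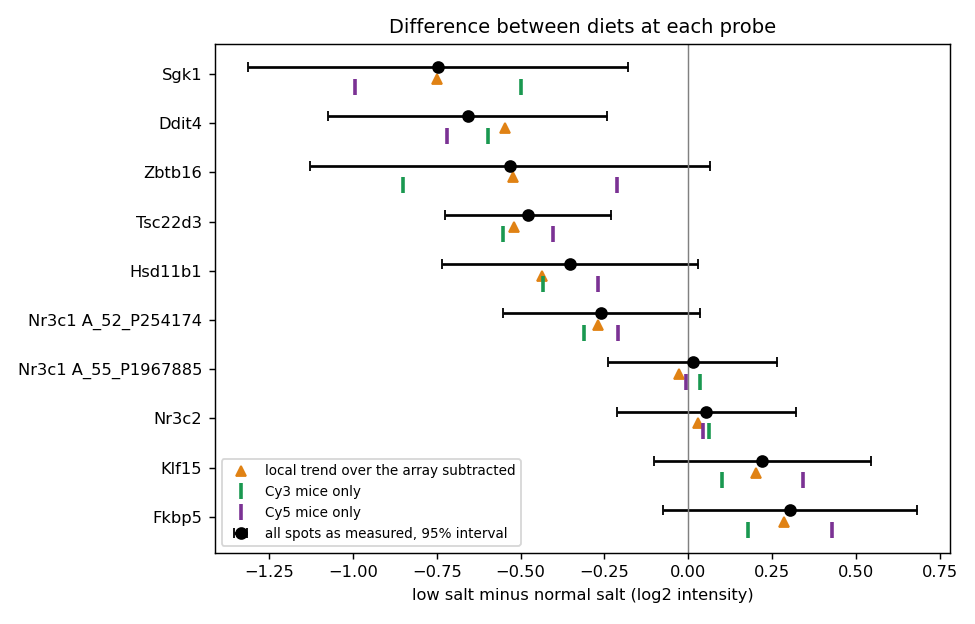
Low salt minus normal salt log2 difference of the 10 tested probes (horizontal axis), with 95% confidence intervals from limma, the value with the local trend over the array subtracted (triangles), and the differences within the Cy3 mice and within the Cy5 mice (ticks). The intervals of Sgk1, Ddit4 and Tsc22d3 lie below 0 and those of the other probes cross it.

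The 6 targets thus lay on both sides of 0: Sgk1, Tsc22d3, Ddit4 and Zbtb16 were lower on low salt in both dyes, and Fkbp5 and Klf15 were higher in both. The Cy3 and Cy5 mice of a diet shared their arrays, so the dyes are not independent repeats. Only the targets' own differences from 0 were tested, and the differences between targets were not.

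Further genes of the pathway came from lists, each gene read from its brightest probe. Of 18255 genes, 141 were past the threshold and higher on low salt by the same test, and 7 were past it and lower. Of the 189 probes past the threshold over all probes, 154 lay in the uneven parts of the arrays. An unadjusted p under 0.05 was found for 2077 genes. The receptor machinery (chaperones, co-chaperones and coregulators that fold the receptors or act with them on DNA) had 18 of 18 genes tested and none past the threshold, 1 with an unadjusted p under 0.05, 9 above 0 and 9 below. Its median difference was 0.00, against 0.01 for all genes. The genes with the smallest p were Ptges3, the co-chaperone p23 (-0.25 ± 0.10, adjusted p = 0.426), and Stub1, the ubiquitin ligase CHIP that works with Hsp70 and Hsp90 (-0.82 ± 0.36, adjusted p = 0.462). Low salt values of Stub1 were 12.53, 12.61, 12.92 and 12.98, against 14.47, 13.90, 13.08 and 12.86 on normal salt, and normal salt mice 1 and 2, which shared an array, stood highest.

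Steroid synthesis and metabolism had 7 of 12 genes tested, none past the threshold, 1 with an unadjusted p under 0.05 and a median difference of 0.06. Cyp11a1, Hsd3b1, Cyp11b1 and Cyp11b2, which make steroid hormones in the adrenal gland, and Serpina6, the corticosteroid-binding globulin, did not pass the filter on dim probes. Srd5a1, steroid 5α-reductase 1, differed by 0.28 ± 0.12 (adjusted p = 0.426), and by 0.14 (adjusted p = 0.559) with the local trend of its spots, 0.14, taken off. Cyp21a1, steroid 21-hydroxylase, differed by -0.27 ± 0.14 (adjusted p = 0.498).

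Other known corticosteroid targets had 39 of 44 genes tested and none past the threshold, with 15 above 0, 24 below and a median of -0.11. An unadjusted p under 0.05 was found for 6 of them. Ptgds, a prostaglandin D synthase, read 17.22, 16.81, 16.88 and 16.77 in low salt mice, against 15.73, 16.11, 15.62 and 16.22 in normal salt mice. All low salt mice were higher, with a difference of 1.0 ± 0.27 (adjusted p = 0.198). Adamts1, a secreted protease that cleaves matrix proteoglycans, read 9.90, 10.10, 9.75 and 10.04 in low salt mice, against 10.14, 10.75, 10.22 and 10.54 in normal salt mice. Its groups did not overlap either, and the difference was -0.46 ± 0.13 (adjusted p = 0.235). Scnn1b and Scnn1g, subunits of the epithelial sodium channel, were among the genes of this list that did not pass the filter.

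Glucocorticoids also act on the circadian clock, and Per1 is on both the target and the clock list. The clock list had 16 of 18 genes tested, 1 of them past the threshold, 5 with an unadjusted p under 0.05 and a median of -0.21. Nr1d1, the clock repressor REV-ERBα, rose on low salt, with 10.59, 10.96, 10.54 and 10.82 in low salt mice, against 9.41, 9.71, 9.44 and 9.91 in normal salt mice. The difference was 1.11 ± 0.10 with an adjusted p of 0.003 (limma, over all probes). With the mouse number as a replicate block 2 genes of the list passed, as Arntl, the clock activator BMAL1 (1.26 ± 0.26, adjusted p = 0.079), then had an adjusted p of 0.026. Arntl was named after its values were seen. The part of the clock in the values of the corticosteroid targets was not tested.

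**Figure D4:**
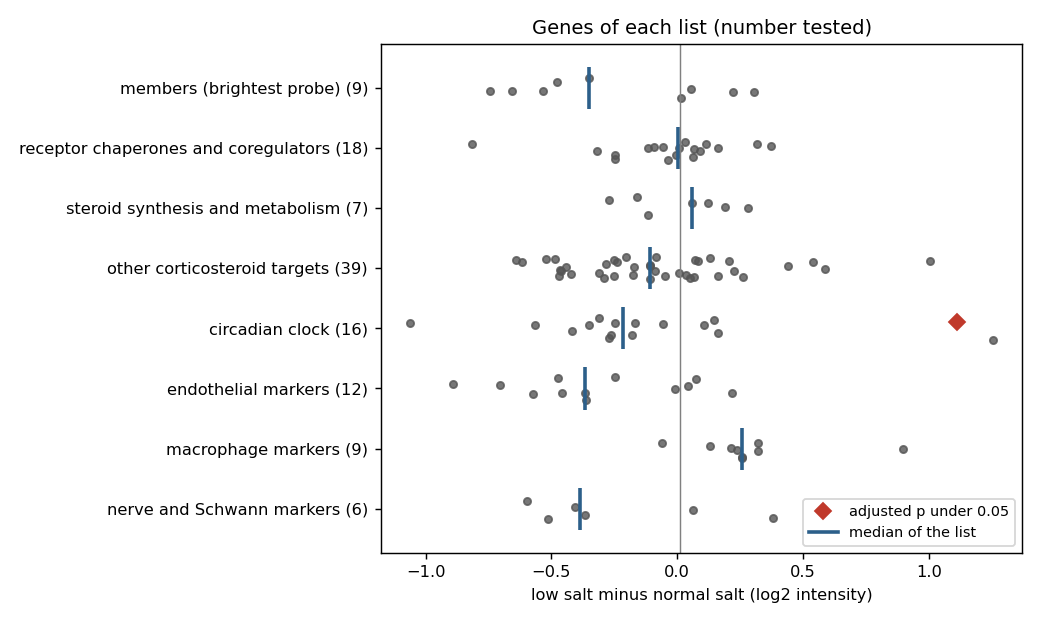
Low salt minus normal salt log2 difference (horizontal axis) of each tested gene of the set, of the 4 pathway lists and of the endothelial, macrophage and nerve markers, with the median of each list as a vertical line and genes past the threshold as diamonds. The medians of the set, the endothelial and the nerve markers lie left of 0, that of the macrophage markers lies right of it, and that of the receptor machinery lies at 0.

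All 10 ventricular cardiomyocyte markers were measured in every mouse, with a mean log2 intensity of 16.57 to 17.15 in low salt mice and 16.73 to 17.33 in normal salt mice. No marker of another cell type passed the threshold, and 47.5% of all genes lay below 0. An unadjusted p under 0.05 in limma, in either direction, was found for 5 nerve and Schwann cell markers and 4 endothelial markers. It was also found for 2 ventricular cardiomyocyte markers and 1 macrophage marker, and for none of the other marker lists. Over all genes it was found for 2077 of 18255. The 12 endothelial markers were all tested, 9 below 0 and 3 above with a median of -0.37, and their summed intensity was 67991 to 92380 in low salt mice and 99139 to 149079 in normal salt mice. Fabp4, a fatty acid binding protein, took the largest share of these sums, and the other 11 markers summed to 36447 to 44355 in low salt mice and 35889 to 57543 in normal salt mice, which overlap. Of 10 macrophage markers 9 were tested (all but Cd163), 8 above 0 and 1 below with a median of 0.26, and the sums were 14260 to 18444 in low salt mice and 12693 to 14910 in normal salt mice. One of them, Cx3cr1, a receptor of resident macrophages (0.90 ± 0.22, adjusted p = 0.142), had an adjusted p of 0.037 under the replicate block and was named after its values were seen. Of 8 nerve and Schwann cell markers 6 were tested (all but Npy and Gap43), 2 above 0 and 4 below with a median of -0.39, and the sums were 2819 to 3530 in low salt mice and 3516 to 3947 in normal salt mice. The median was -0.74 for atrial cardiomyocyte markers, -0.10 for fibroblast, -0.11 for smooth muscle and pericyte, 0.06 for adipocyte, 0.03 for lymphocyte and 0.09 for blood cell markers. Of the 7 atrial markers tested 6 lay below 0 and 1 above, and mice of the same diet differed widely. The atrial sums were 55804 to 74091 in low salt mice and 28070 to 137706 in normal salt mice, which overlap. The part of these cells in the values of Sgk1, Tsc22d3, Ddit4 and Hsd11b1 was not tested.

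The genes whose values over the 8 mice ran closest to those of Sgk1 (Pearson correlation among 18051 genes) were Cd300c (0.986), ENSMUST00000143605 (0.973), Ccdc34 (0.966), A_55_P2151991 (0.963) and A930012O16Rik (0.963). All 5 were read from dim probes, and that of Ccdc34 lay in an uneven part of the arrays. Spots around them differed between the diets by -0.11, -0.02, -0.24, -0.12 and -0.06 in the same order, and around Sgk1 by 0.004. Among the set Tsc22d3 stood closest to Sgk1, at 0.869 and rank 236, followed by Ddit4 at 0.528 and rank 3080, Hsd11b1 at 0.374 and Zbtb16 at 0.344. Correlations with Sgk1 were below 0 for Nr3c1 (-0.240), Fkbp5 (-0.393), Klf15 (-0.398) and Nr3c2 (-0.589). A higher correlation was found for 58.0%, 67.1%, 67.5% and 79.8% of all genes ranked, in the same order. These mice share arrays, dyes and diets, so the correlations describe the order of the samples and carry no test.

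**Figure D5:**
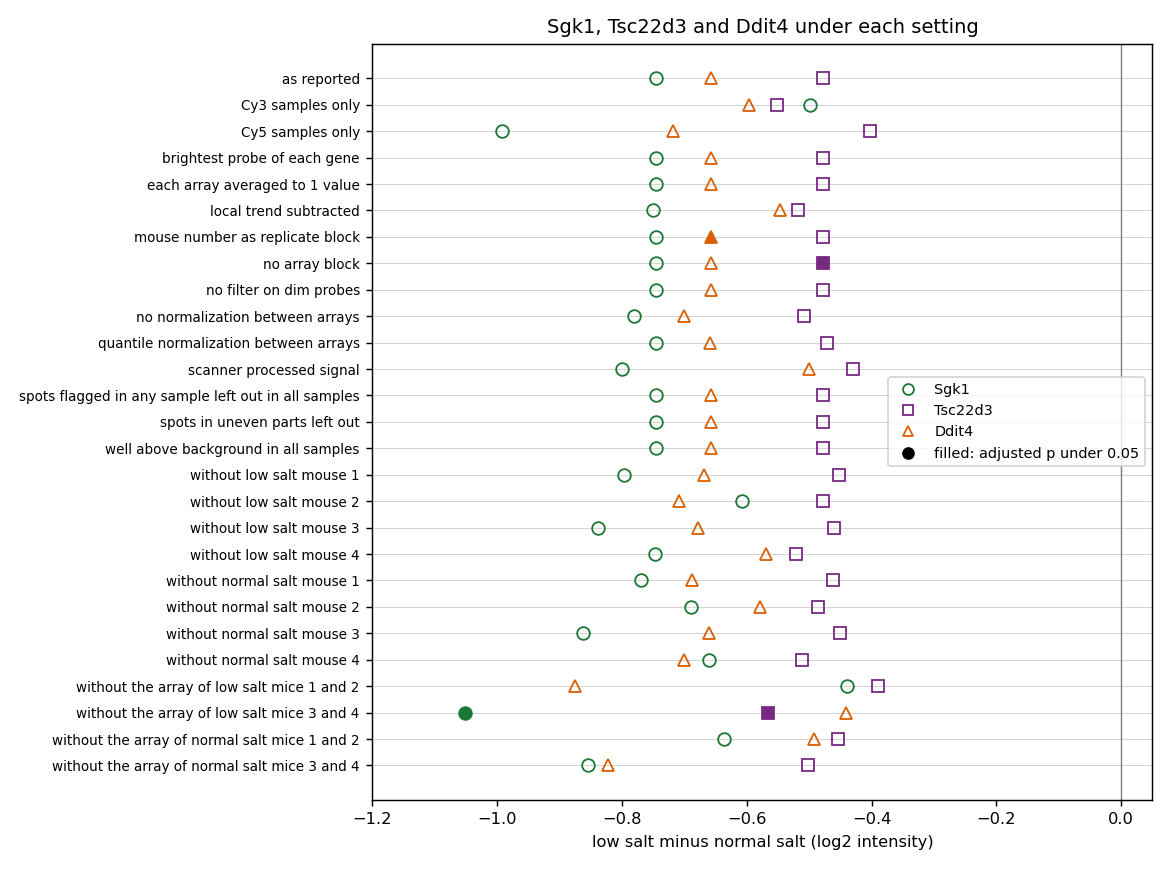
Low salt minus normal salt log2 difference (horizontal axis) of Sgk1, Tsc22d3 and Ddit4 under each processing alternative (rows), with filled symbols where the adjusted p was under 0.05. All values lie below 0; Sgk1 moves furthest, when an array of low salt mice is left out.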

How the data were processed

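The authors deposited scanner tables with the intensity of each spot and its local background in both channels and the flags of Agilent Feature Extraction 11.5.1.1 (protocol GE2_1105_Oct12), per the file headers. Both tables of an array are identical, and each sample was read from its own dye, per the labels. Spots numbered 44397 per array, the median intensity was 116 to 147 per sample over a background of 15.5 to 33.5, and 53.0% to 66.3% of spots were well above background. No probe of the set was saturated. The number of arrays limits the precision. The value table the authors deposited holds a ratio with a median of 1 in every column, whose scale and centring are otherwise unknown. It was used for no gene, since its rows ran with the spots of the same number at a Spearman correlation of only 0.005 to 0.017 and could not be named.

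The normexp method (offset 50) was applied to mean signal and background median, followed by loess within and Aquantile between arrays in limma 3.58.1 (R 4.3.3, statmod 1.5.0), and intensities were taken to log2 per channel. A flagged local background was replaced by the channel median and flagged spots were left out. Spots of a probe were averaged, and a probe was kept where 4 or more samples had it well above background. The fit held diet and dye, with array as a random block (correlation 0.553), eBayes and 2-sided tests, adjusted by Benjamini-Hochberg over 23244 probes at a threshold of 0.05. It was also run on simulated data, which held no trend over the array and so cannot speak to calls that go with such a trend. Genes were named through RefSeq where the design's accession or name matched (27508 probes by accession, 3544 by name, 404 by synonym), and 7973 kept the file's name.

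The mice are separate animals. Same-numbered mice of the diets shared a dye and deviated together (correlations of 0.306, 0.142, 0.163 and 0.200, all over 0.1). Their number was therefore also fitted as a block, although the labels name no pairs of mice. A local trend was the running median over 25 rows and 9 columns of a sample's deviation from the mean of all samples, and parts with a local difference of 0.2 or more were called uneven. They held 4.61% of tested probes and 154 of the 189 probes past the threshold, but no probe of the set other than 1 Hsd11b1 spot. All 10 genes of the set were named, as were up to 4 genes past the threshold or else the 2 with the smallest p of each pathway list, and the 5 genes most like Sgk1. The set and the lists were chosen with earlier results of these data known.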

Additional observations from a re-analysis of the deposited data

Results flagged for a closer look

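Normal salt mouse 1 stood apart from the other normal salt mice for Hsd11b1, at 10.84 where the others were between 10.56 and 10.60. Its gap to the nearest of them was 0.855 of the range of the group, above Dixon's critical value for 4 samples. Over the 8 spots of the probe flagged in no mouse, the same mouse read 10.91, against 10.64 to 10.66 in the other normal salt mice.

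Normal salt mouse 2 stood apart for Fkbp5, at 10.07 where the other normal salt mice were between 9.61 and 9.68. Its gap was also 0.855 of the range. Such gaps were looked for in 22 groups of 4 mice, and chance gives about 1 in 20.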

How the results depend on the processing

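Of the differences of the 10 tested probes under the alternatives, 244 kept their direction and their side of the threshold, 4 passed the threshold and 11 changed sign. The changes of sign were those of the probes nearest to 0. Nr3c1 probe A_55_P1967885 read -0.0076 in Cy5 mice alone, -0.028 with the local trend subtracted, -0.023 with no normalization between arrays, -0.11 from the processed signal of the scanner software, -0.013 without the low salt array of mice 3 and 4, -0.00089 without the normal salt array of mice 3 and 4, and -0.032 to 0.063 with single mice left out. Nr3c2 read -0.082 without the low salt array of mice 1 and 2 and -0.0086 without the normal salt array of mice 3 and 4. The number of probes of the set past the threshold was 1 with the mouse number as a replicate block (Ddit4) and 1 with no array block (Tsc22d3). It was 2 without the low salt array of mice 3 and 4 (Sgk1 and Tsc22d3), a fit in which 1 array stands for low salt. Among the 10 probes and the lists, the replicate block changed the calls of Ddit4, Arntl and Cx3cr1 and no others. The number over all probes, 189, was 312 with the replicate block, 806 with no array block, 83 with the local trend subtracted, 61 from the processed signal and 15 with spots in uneven parts left out, an alternative chosen after seeing the data. It was 98, 1400 and 347 without the arrays of low salt mice 1 and 2, low salt mice 3 and 4, and normal salt mice 1 and 2, and 70 to 154 without single mice. It was 0 in Cy3 mice alone, Cy5 mice alone, with arrays averaged and with no normalization between arrays, where limma gave 2336, 1601, 1994 and 976 probes an unadjusted p under 0.05. Of the probes past the threshold 95.8% were higher on low salt, against 76.7% with no array block, 80.7% with the local trend subtracted, 41.0% without the low salt array of mice 3 and 4, and 74.8% to 78.4% without an array of normal salt mice. The probe of Hsd11b2 was not well above background in any mouse. The cause of the moves was not tested.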
